A study of Rattus norvegicus with 9 samples.

Results

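The genes described here encode the proteins of the cytosolic ribosome in rat hippocampal cultures. The rule that picks them uses name and level and no difference between groups, but the family was taken up with earlier results of these data known. A member is a protein-coding gene whose symbol starts with Rpl or Rps and a digit, or is Rplp0, Rplp1, Rplp2 or Rpsa, leaving out the Rps6k kinases, with a mean of at least 0.5 FPKM over the 9 libraries. FPKM are fragments scaled by gene length and by a factor for each library, so levels of different genes can be set side by side. Of 34092 genes in the table, 91 had such a name and 85 passed the level filter, 49 of the large (60S) and 36 of the small (40S) subunit, under 79 symbols. All 85 were among the 15958 genes tested. The members comprise 69 genes with 1 row a symbol (single genes below), 14 rows that share their symbol with another row or are named as a copy (Rps9l1, Rps10l1, Rps18l1 and Rps19l2), and 2 genes, Rpl7l1 and Rps19bp1, whose names fit but whose products belong to ribosome assembly or bind a ribosomal protein.

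All cells were dissociated from wild-type rat hippocampi at embryonic day 17 and kept as primary neuronal cultures until day 7 in vitro. They then received vehicle, 1 nM human aminoprocalcitonin (NPCT, the N-terminal peptide of procalcitonin) or 1 nM human procalcitonin (PCT) for 24 h. Each of the 3 groups had 3 libraries of poly-A-selected mRNA. The study's methods speak of RNA from pooled triplicates while the labels number 3 samples a group, so the p-values measure the spread between these libraries, which may be technical. The question put to the ribosomal protein genes was whether their mRNA levels differed between vehicle, NPCT and PCT, for each subunit apart.

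A ribosome is assembled from ribosomal RNA and about equal numbers of each ribosomal protein, and the mRNAs of these proteins are among the most abundant of a cell. In mammals many of these mRNAs start with a C followed by an unbroken run of pyrimidines, the terminal oligopyrimidine (TOP) tract, through which mTORC1 signalling sets their translation. Neurons carry ribosomes and ribosomal protein mRNAs into dendrites and axons, where local protein synthesis takes part in growth and plasticity. Many ribosomal protein genes have intronless copies elsewhere in the genome, so that short reads cannot always be given to 1 of them.

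The annotated starts of the members differ in this feature. The windows printed here run from 40 bases before the annotated start to 20 bases from it, in lower case, with the start base and the unbroken pyrimidine run from it in capitals, 5′ to 3′ on the gene's strand (RefSeq, GRCr8). The first set holds genes that were higher with PCT than with vehicle or than with NPCT, and it leaves out others that fit. In the second set, all NPCT libraries and PCT replicate 3 were higher than the vehicle libraries and the other PCT libraries. The third is shown because Rpl26 was lower with NPCT than with PCT and Rpl11 was higher than vehicle with both peptides.
Rpl10, chrX:157205810-157205869, plus strand: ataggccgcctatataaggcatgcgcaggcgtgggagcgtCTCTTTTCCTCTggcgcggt
Rpl27a, chr1:172974533-172974592, plus strand: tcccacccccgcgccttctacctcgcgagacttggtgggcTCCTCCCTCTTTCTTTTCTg
Rplp1, chr8:71290853-71290912, minus strand: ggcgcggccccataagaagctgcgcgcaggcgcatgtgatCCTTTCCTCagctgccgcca
Rpl3, chr7:113507971-113508030, minus strand: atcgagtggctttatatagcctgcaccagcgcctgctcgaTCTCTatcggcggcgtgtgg
Rps24, chr16:96477-96536, plus strand: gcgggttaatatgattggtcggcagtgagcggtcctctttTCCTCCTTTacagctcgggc
Rpl36, chr9:1533740-1533799, plus strand: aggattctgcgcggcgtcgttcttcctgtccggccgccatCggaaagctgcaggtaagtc
Rpl13, chr19:68062474-68062533, plus strand: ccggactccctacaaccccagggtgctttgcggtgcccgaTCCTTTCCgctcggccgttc
Rps21, chr3:187723998-187724057, plus strand: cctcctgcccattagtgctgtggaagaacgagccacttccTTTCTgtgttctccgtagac
Rps28, chr7:15311314-15311373, minus strand: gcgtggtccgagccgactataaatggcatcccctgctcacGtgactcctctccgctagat
Rpl26, chr10:54109652-54109711, plus strand: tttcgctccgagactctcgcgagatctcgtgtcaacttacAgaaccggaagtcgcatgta
Rpl11, chr5:153560783-153560842, minus strand: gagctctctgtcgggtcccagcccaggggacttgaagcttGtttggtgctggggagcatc

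Among the first set the run from the start was 12 bases long in Rpl10, 19 in Rpl27a, 9 in Rplp1, 9 in Rps24 and 5 in Rpl3. In the second set it was 8 bases in Rpl13, 5 in Rps21 and 1 in Rpl36, and Rps28 started with G. Rpl26 started with A and Rpl11 with G. Both also fit the description of the first set. So did Rpl36a, with a C start and a run of 1 base, and Rpl21, whose window started with G. Since the sets do not hold every gene that fits, run lengths cannot be compared between them. RefSeq windows were found for 59 of the 79 member symbols, 60 windows in all, since Rps27a had a pair. A run of at least 5 pyrimidines from the start was found in 27 of 60 (45%) of the members' windows and in 4.75% of all 33469 windows. A C start with such a run was found in 18 of 60 (30%) and 2.63%. Annotated starts can lie a few bases from the base most used, and a run of at least 7 pyrimidines within 20 bases of the start was found in 48 of 60 (80%) of the members' windows and 30.1% of all windows.

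In the 300 bases from 250 before to 50 after the start, CCGGAA on either strand was found in 29 of 60 (48.3%) of the members' windows and 15% of all windows. GGGCGG was found in 34 of 60 (56.7%) and 33.1%, TATAAA in 8 of 60 (13.3%) and 14.2%, and AAGATGGC in 3 of 60 (5.00%) and 3.17%. CTTTCC, added after the windows had been read, was found in 31 of 60 (51.7%) and 26.4%, and it can lie within a pyrimidine run. These are matches of letters, not binding sites. Of the genes described below, Rpl7, Rpl8, Rpl10l, Rpl15, Rpl36al, Rpl39l, Rps18l1, Rps19l2 and Rps29 had no entry.

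The libraries held 13573056 to 17211642 fragments. Stmn2 and Tubb3 led the 8 neuron markers, which summed to 1979.9 to 2070.5 FPKM in the vehicle libraries, 1911 to 1972 with NPCT and 1945 to 2145 with PCT. The cultures were mixed: 8 astrocyte markers, led by Gfap, summed to 2438 to 2616, 2385 to 2658 and 2101 to 2170.2 FPKM in the same order, and 8 oligodendrocyte lineage markers to 399 to 416, 427 to 445 and 345 to 359. Of the astrocyte markers Gfap was higher with PCT (mean 776 FPKM with vehicle and 919 with PCT). The other 7 were lower, each with an adjusted p of at most 0.05 in the test described below, against 2.46% of all genes. The median log2 fold change of the 8 was -0.62 with PCT and 0.0056 with NPCT. The lower oligodendrocyte lineage sum with PCT was that of Olig1 (272 ± 11.3 FPKM with vehicle and 191 ± 5.24 with PCT, n = 3 each), while the other 7 markers of that list had positive log2 fold changes. Markers of microglia (12 of 12 in the table above 0) summed to 36.5 to 50.1, 46.4 to 218 and 16.7 to 22.6, the highest value being that of NPCT replicate 3. The 5 fibroblast markers summed to 11.4 to 14.9, 11.0 to 13.0 and 13.6 to 22.6, the 5 markers of dividing cells to 56.9 to 64.1, 45.1 to 67.1 and 57.2 to 63.1, and the 6 of endothelium and pericytes, 1 of them listed at 0 in all libraries, to 4.10 to 4.75, 4.11 to 4.93 and 3.80 to 4.42. The part of these cell types in the differences below was not tested, and in bulk RNA a change in the number of cells of a type and a change in RNA per cell cannot be told apart.

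In vehicle cultures the members took 1.48 ± 0.0176% of all fragments (mean ± SD, n = 3 libraries). Of the large subunit the highest levels were those of Rplp0 with 886 ± 22.7 FPKM, Rplp1 with 754 ± 23.5, Rpl41 with 662 ± 52.0, Rpl35 with 589 ± 37.0 and Rpl29 with 508 ± 45.6. Rplp0 is the base of the stalk that receives the GTPase translation factors, Rplp1 is one of the acidic proteins that it carries, and Rpl41 is the smallest ribosomal protein. Of the small subunit they were those of Rpsa with 779 ± 15.5 FPKM, Rps29 with 611 ± 70.3, Rps15 with 491 ± 22.3, Rps2 with 463 ± 57.2 and the Rps27a row on chromosome 14 with 449 ± 178. Rpsa was first described as a laminin receptor precursor, and Rps27a is made as a fusion with ubiquitin. The lowest were Rpl39l with 1.08 ± 0.414, the Rpl21 copy on chromosome 3 with 1.25 ± 0.347 and Rpl10l with 2.68 ± 0.182 FPKM in the large subunit, and Rps4y2 with 1.08 ± 0.199, Rps6 with 14.2 ± 13.7 and Rps18l1 with 16.2 ± 1.61 FPKM in the small one. Rpl39l and Rpl10l are paralogs known from testis.

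The members' share of fragments was 1.48, 1.47 and 1.50% in the vehicle libraries, 1.74, 1.63 and 1.87% with NPCT and 1.62, 1.77 and 1.94% with PCT. All 6 treated libraries lay above all 3 vehicle libraries, and replicate 3 was the highest of its group in all 3 groups. Both subunits took part, and the summed FPKM of the large over that of the small subunit lay between 1.44 and 1.62, highest in PCT replicate 3. Fragments of the mitochondrial genome, which count in the same total, were 5.30, 5.84 and 5.18% in the vehicle libraries, 3.70, 4.002 and 4.17% with NPCT and 6.21, 5.46 and 4.11% with PCT.

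**Figure D1:**
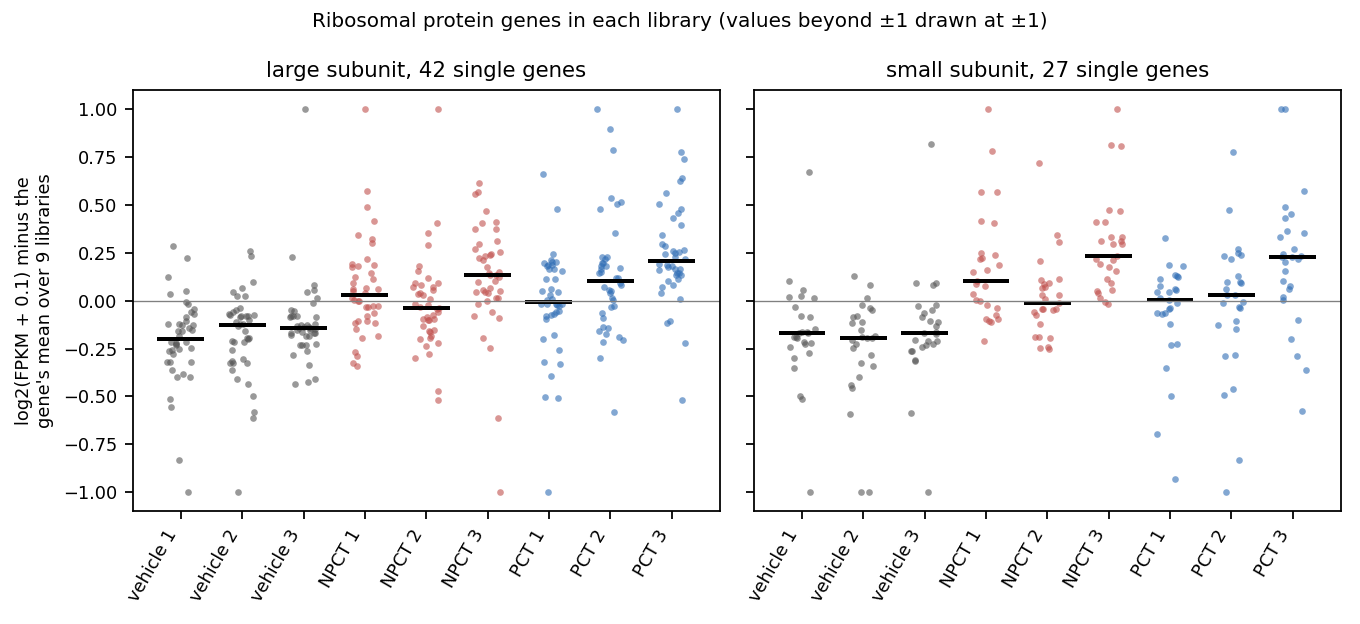
Log2 level of each single ribosomal protein gene relative to its mean over the 9 libraries (vertical axis, log2 units), by library (horizontal axis), for the 42 large subunit genes and the 27 small subunit genes apart. Each point is a gene and the black line its median, and values beyond 1 in either direction are drawn at 1. The medians of the vehicle libraries lie lowest, between -0.20 and -0.13, and those of PCT replicate 3 are 0.21 and 0.23.

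With NPCT most ribosomal protein genes lay above vehicle, by a median log2 fold change of 0.15 in the large subunit (36 of 49 genes higher) and 0.24 in the small subunit (27 of 36 higher). With the trend over gene length removed the medians were 0.075 and 0.13, and 52 of 85 members were higher in place of 63. The median over all genes tested was 0.0062, with 8110 of 15958 higher. Only Rpl11 passed the test (limma on log2(FPKM + 0.1) over all 9 libraries, Benjamini-Hochberg adjusted p of at most 0.05 over all genes). Against this 1 member of 85, 0.269% of all genes were called higher and 0.201% lower. In the small subunit 0 genes were called, with 13 higher and 1 lower at an unadjusted p under 0.05. In the large subunit 18 were higher and 1 lower at that level, whereas over all genes 14.4% were higher and 14.9% lower. All 3 NPCT libraries lay above all 3 vehicle libraries for 41 members and below them for 6, against 20.0% and 20.3% of all genes. Without NPCT replicate 3, the library with the highest microglia markers, the medians were 0.11 and 0.19.

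Rpl11, which forms a particle with Rpl5 and the 5S ribosomal RNA and binds the p53 regulator Mdm2 when ribosome assembly fails, had 34.8, 34.9 and 37.0 FPKM in the vehicle libraries, 47.4, 46.0 and 53.5 FPKM with NPCT and 43.8, 50.9 and 47.7 FPKM with PCT. Its lowest treated library lay above its highest vehicle library in both groups. Its log2 fold change was 0.46 (SE 0.078, adjusted p = 0.0493) with NPCT and 0.41 (SE 0.078, adjusted p = 0.0229) with PCT. In the comparison with NPCT its adjusted p ran from 0.00794 to 0.169 with single libraries left out, and among these sets it was at most 0.05 only without PCT replicate 1 and without PCT replicate 3. The gene lies at chr5:154388140-154394328 (Rnor_6.0).

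Rps28, Rps21, Rpl36 and Rpl13 had differences with NPCT of at least 1.00 on the log2 scale and a pooled SD within groups from 0.29 to 0.499, highest in Rps28, and none of them passed the test across the 9 libraries. Rps28, which lies near the place where the mRNA leaves the small subunit, had 88.9, 68.5 and 83.5 FPKM in the vehicle libraries, 178, 170.2 and 181 FPKM with NPCT and 54.3, 58.1 and 154 FPKM with PCT. Its NPCT levels lay above all vehicle levels, and its PCT levels lay below them in replicates 1 and 2 and above them in replicate 3. The log2 fold change with NPCT was 1.14 (SE 0.34, adjusted p = 0.0725).

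Rps21, a small subunit protein, had 171, 192 and 162 FPKM in the vehicle libraries, 362, 309 and 428 FPKM with NPCT and 173, 220.2 and 311 FPKM with PCT. Rpl36, a large subunit protein, had 342, 326 and 361 FPKM in the vehicle libraries, 726, 649 and 720.1 FPKM with NPCT and 345, 443 and 763 FPKM with PCT. Rpl13, also of the large subunit, had 273, 262 and 299 FPKM in the vehicle libraries, 563, 511 and 594 FPKM with NPCT and 306, 348 and 687 FPKM with PCT. In all 3 genes the NPCT libraries were above the vehicle libraries without overlap, and PCT replicate 3 was the highest of the PCT libraries. Their log2 fold changes with NPCT were 1.06 (SE 0.20, adjusted p = 0.0508) for Rps21, 1.02 (SE 0.23, adjusted p = 0.053) for Rpl36 and 1.00 (SE 0.25, adjusted p = 0.0586) for Rpl13.

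Rplp2, Rps6, Rps19 and 1 of the Rpl7a rows also had large fold changes, 1.72, 1.66, 0.92 and 1.06, but their libraries of one group differed by as much and their adjusted p lay between 0.232 and 0.587. Among the lowest fold changes were those of several gene copies and of Rpl39, which lines the tunnel through which the growing chain leaves, with -0.32 (SE 0.16, adjusted p = 0.226). In the small subunit they were those of Rps9l1 with -0.98, Rps4x on chromosome 4 with -0.31, Rps27a on chromosome 5 with -0.25 and Rps7 with -0.19, none with an adjusted p of at most 0.05. Of the large subunit they were those of the Rpl21 copies on chromosomes 3 and 13 with -0.62 and -0.34 and the other Rpl7a row with -0.41.

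The number of members called with NPCT differed between settings. Without any one vehicle or NPCT library, or without PCT replicate 2, limma called 0 members. At an unadjusted p under 0.05 there were 27 to 38 members. In those sets 0 to 2 of all 15958 genes were called, and 3306 to 4803 were at an unadjusted p under 0.05. Without PCT replicate 1 limma called 10 members. It called 9 with a filter at a mean of 1 FPKM, 8 after quantile normalization and 16 with a replicate block. Calls over all genes, 75 with all 9 libraries, were 713 without PCT replicate 1 and 734, 601 and 1235 in these 3 settings. Fitted on the vehicle and NPCT libraries alone, 28 of 85 members were called higher (16 large, 12 small) and 4 lower, against 9.79% and 9.06% of all genes. Fitted without PCT replicate 3, 28 were called higher (17 large, 11 small) and 3 lower, against 9.71% and 9.57%. As a share of the members these were 32.9% higher and 4.71% lower, and 32.9% higher and 3.53% lower. Without PCT replicate 3 the adjusted p was 0.00232 for Rps28, 0.0042 for Rps21, 0.00234 for Rpl36 and 0.00232 for Rpl13. The 3 members then called lower were Rpl39 (adjusted p = 0.0466), Rpl26 (adjusted p = 0.0175) and Rps4x on chromosome 4 (adjusted p = 0.00499).

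With PCT 7 large subunit genes rose over vehicle, and no small subunit gene passed the test. They were Rpl3, Rpl7, Rpl8, Rpl10, Rpl11, Rpl15 and Rpl27a, with changes between 0.29 and 0.70 on the log2 scale, and Rpl8 was the only one changed by more than 1.5 times. The median log2 fold change was 0.28 in the large subunit (43 of 49 higher) and 0.24 in the small subunit (29 of 36 higher), and 0.0046 over all genes. Over all genes 1.75% were called higher and 2.46% lower, and 8134 of 15958 were higher. At an unadjusted p under 0.05, 28 large subunit genes were higher and 2 lower and 16 small subunit genes were higher and 0 lower, against 10.1% and 8.78% of all genes. All 3 PCT libraries lay above all 3 vehicle libraries for 44 members and below them for 3, against 13.1% and 11.9% of all genes.

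Rpl3, which lies next to the peptidyl transferase centre, had 137, 143 and 134 FPKM in the vehicle libraries, 141, 143 and 151 FPKM with NPCT and 172, 177 and 169.5 FPKM with PCT. The PCT libraries were above all 6 others, and the vehicle and NPCT libraries overlapped. Its log2 fold change with PCT was 0.33 (SE 0.052, adjusted p = 0.012), and the adjusted p was 0.0144 without PCT replicate 3. Rpl3 lies at chr7:121297355-121311565 (Rnor_6.0).

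Rpl10, one of the last proteins to join the large subunit, had 369.9, 372 and 361 FPKM in the vehicle libraries, 393, 375 and 415 FPKM with NPCT and 435, 456 and 458 FPKM with PCT. Its PCT libraries were again above all others. The log2 fold change was 0.29 (SE 0.057, adjusted p = 0.0277). Rpl27a had 189, 215 and 224 FPKM in the vehicle libraries, 228, 222 and 249 FPKM with NPCT and 279.6, 352 and 301 FPKM with PCT, with every PCT library above every other. Its log2 fold change was 0.57 (SE 0.10, adjusted p = 0.0162). Without PCT replicate 3 the adjusted p was 0.0364 for Rpl10 and 0.0274 for Rpl27a.

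Rpl15, a large subunit core protein, had 124, 127 and 139.5 FPKM in the vehicle libraries, 185, 169.8 and 195 FPKM with NPCT and 155, 184 and 215 FPKM with PCT, so that both treated groups lay above vehicle. Rpl7, another large subunit protein, had 67.7, 62.6 and 63.9 FPKM in the vehicle libraries, 70.2, 67.1 and 74.1 FPKM with NPCT and 75.0, 80.5 and 88.2 FPKM with PCT, with all PCT libraries above all others. Rpl8, which reaches the peptidyl transferase centre with a long extension, had 3.20, 3.12 and 3.75 FPKM in the vehicle libraries, 4.06, 3.60 and 5.02 FPKM with NPCT and 4.62, 6.09 and 5.89 FPKM with PCT. These levels of Rpl8 are among the lowest of the large subunit and rest on 36 to 80 fragments a library. The log2 fold changes with PCT were 0.49 (SE 0.11, adjusted p = 0.0459) for Rpl15, 0.32 (SE 0.072, adjusted p = 0.0411) for Rpl7 and 0.70 (SE 0.16, adjusted p = 0.0459) for Rpl8. These 3 calls were lost without PCT replicate 3, with an adjusted p of 0.0607, 0.0593 and 0.0918. With each library left out in turn, Rpl3 lost its call without vehicle replicate 1 or 3 (adjusted p 0.00987 to 0.0659 over the sets) and Rpl27a without vehicle replicate 1 or 2 (0.0174 to 0.075). Rpl11 lost it without any one vehicle library or PCT replicate 2 (0.0148 to 0.103), and Rpl10 without these or NPCT replicate 1 (0.0203 to 0.115). Rpl7, Rpl8 and Rpl15 lost theirs without most of the 9 libraries, with an adjusted p of up to 0.173.

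Without PCT replicate 3, 7 members were called higher with PCT (6 large, 1 small; 8.24%) and 1 lower (1.18%), against 1.65% and 2.49% of all genes. The one called lower was Rps28 (adjusted p = 0.0351). With all 9 libraries the highest log2 fold changes of the small subunit were those of Rps19 with 1.45 (SE 0.53, adjusted p = 0.173), Rps19l2 with 0.62, Rps27a on chromosome 5 with 0.60 and Rps27l with 0.49. Among the lowest were those of Rps18l1 with -0.38, Rps4y2 with -0.20 and Rps27 with -0.061. In the large subunit 1 Rpl7a row was highest with 2.08 and the Rpl21 copy on chromosome 13 lowest with -0.46, and Rplp2 and Rpl39l had 1.20 and 0.91 and Rpl10l had -0.42. None of these passed the test.

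Both treated groups were set against the same 3 vehicle libraries, so the comparisons with vehicle are not independent of each other.

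**Figure D2:**
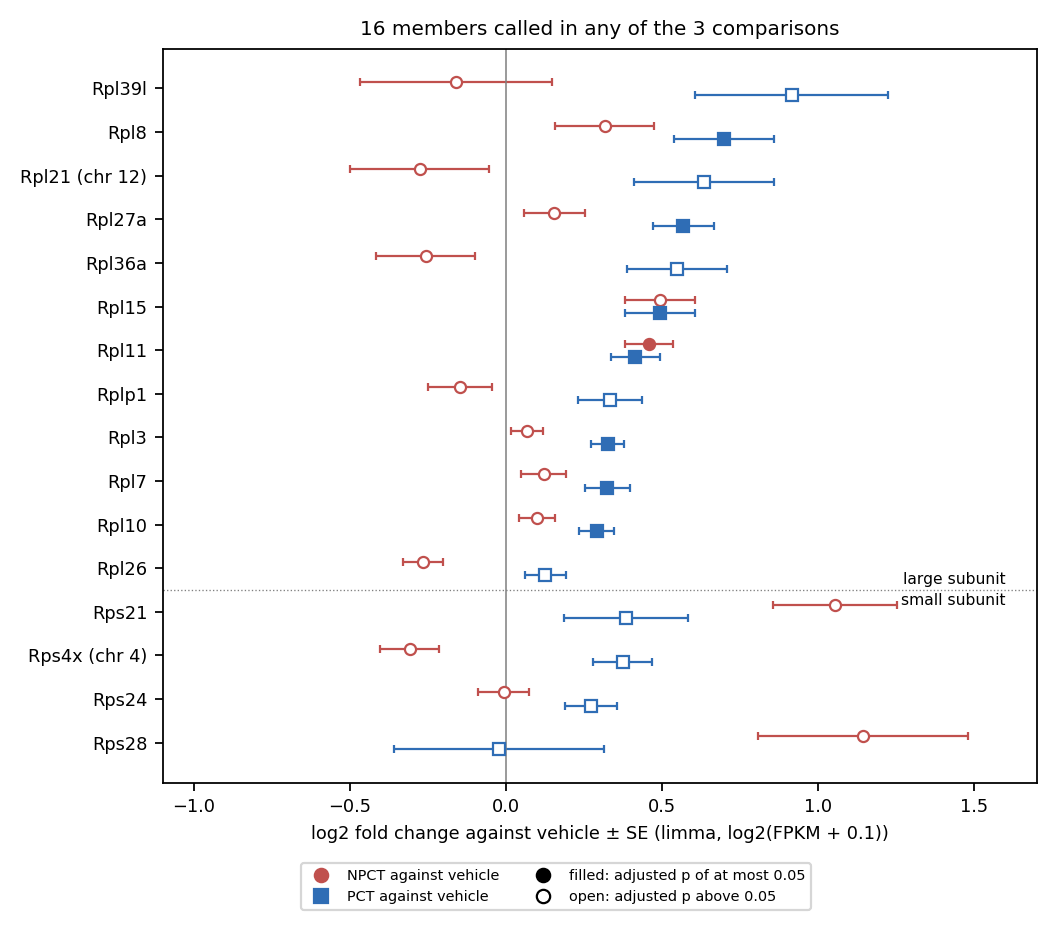
Log2 fold change against vehicle (horizontal axis, log2 units, with its standard error from the model) of 16 of the 17 ribosomal protein genes called in any of the 3 comparisons (vertical axis), for NPCT and PCT. Filled points had an adjusted p of at most 0.05 against vehicle. Rpl11 is filled for both peptides, and the other 6 filled genes are filled for PCT.

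Between the peptides 12 members differed: 9 were lower and 3 higher with NPCT than with PCT. The lower ones were Rpl3, Rpl21 (chromosome 12), Rpl26, Rpl27a, Rpl36a, Rpl39l, Rplp1, Rps4x (chromosome 4) and Rps24. The higher ones, all of the small subunit, included Rps21 and Rps28. The remaining higher gene, whose call is not described here, had an adjusted p of 0.0211, the smallest among the small subunit single genes. Over all genes 8.32% were called lower and 7.97% higher. Median differences were small in both subunits, -0.021 and -0.0027, against -0.0076 over all genes. At an unadjusted p under 0.05, 9 members were higher and 22 lower, 18 of the latter in the large subunit, against 15.6% and 17.5% of all genes. The NPCT libraries lay above all PCT libraries for 5 members and below them for 18, against 15.4% and 18.0% of all genes.

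Rpl26, which lies near the tunnel exit, had 199, 198 and 198 FPKM in the vehicle libraries, 159.6, 156 and 180.3 FPKM with NPCT and 219, 223 and 208 FPKM with PCT. Every NPCT library was below every other library. The log2 difference of NPCT minus PCT was -0.39 (SE 0.064, adjusted p = 0.00726). Rpl36a had 121, 148 and 139.6 FPKM in the vehicle libraries, 114, 104 and 122 FPKM with NPCT and 202, 250.1 and 153 FPKM with PCT, also with every NPCT library below every PCT library, and a log2 difference of -0.80 (SE 0.16, adjusted p = 0.0145). Rplp1, the stalk protein named above, had 749.9, 732 and 779 FPKM in the vehicle libraries, 628, 674 and 743 FPKM with NPCT and 912, 853 and 1098 FPKM with PCT. Its PCT libraries lay above all others, with a log2 difference of -0.48 (SE 0.10, adjusted p = 0.0177).

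Rps24, a small subunit protein whose gene is one of those mutated in Diamond-Blackfan anaemia, had 280.1, 287 and 271 FPKM in the vehicle libraries, 257, 273 and 305 FPKM with NPCT and 307, 349.6 and 358 FPKM with PCT. The NPCT and PCT libraries did not overlap. Its log2 difference was -0.28 (SE 0.082, adjusted p = 0.048), and the adjusted p was 0.0651 without PCT replicate 3. For Rpl3 and Rpl27a, given above, the differences were -0.26 (SE 0.052, adjusted p = 0.0156) and -0.41 (SE 0.10, adjusted p = 0.0265).

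For Rps21 and Rps28, given above, the log2 difference of NPCT minus PCT was 0.67 (SE 0.20, adjusted p = 0.0496) and 1.17 (SE 0.34, adjusted p = 0.046). In these 2 genes PCT replicate 3 lay near the NPCT libraries. Rpl39l, the least abundant of the called members, and the Rpl21 copy on chromosome 12 differed by -1.08 (SE 0.31, adjusted p = 0.0454) and -0.91 (SE 0.22, adjusted p = 0.0286).

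Rps4x has a row on chromosome X and a copy on chromosome 4 and is the X-linked form of a small subunit protein. The copy had 45.7, 47.7 and 46.9 FPKM in the vehicle libraries, 37.3, 38.6 and 37.4 FPKM with NPCT and 56.4, 55.1 and 71.9 FPKM with PCT, the NPCT libraries below all others and the PCT libraries above all others. Its log2 difference between NPCT and PCT was -0.68 (SE 0.094, adjusted p = 0.00357), and the X-linked row had -0.12 (SE 0.056, adjusted p = 0.175). Summed over both rows the level was 254 ± 4.73 FPKM with vehicle, 249 ± 10.3 with NPCT and 291 ± 1.21 with PCT (n = 3 each). The treatment of reads that match several places and of strand is not given in the sources used here, so levels of single rows of such families are uncertain.

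Without PCT replicate 3, 15 members were called higher with NPCT than with PCT (17.6%) and 14 lower (16.5%), against 14.6% and 14.5% of all genes. With each library left out in turn, Rpl26 (adjusted p 0.00303 to 0.0344), Rpl36a (0.00115 to 0.0493) and the Rps4x copy on chromosome 4 (0.000469 to 0.0174) passed the test every time. Rpl3 lost its call without NPCT replicate 1 or PCT replicate 2 (0.00672 to 0.0607), Rplp1 without NPCT replicate 1 or 2 (0.00887 to 0.0672) and Rpl27a without these or PCT replicate 2 (0.0204 to 0.0828). The calls of Rpl21 (chromosome 12), Rpl39l, Rps21, Rps24 and Rps28 were lost without 4 to 8 of the 9 libraries, PCT replicate 2 among them each time.

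Among the ribosomal protein genes, the third PCT library differed from the other PCT libraries in a pattern that the NPCT libraries shared, gene by gene. The median log2 difference of PCT replicate 3 minus the mean of the other PCT libraries was 0.15 in the large and 0.24 in the small subunit, and 0.0056 over all genes. PCT replicate 3 was higher in 63 of 85 members and in 8112 of all 15958 genes. Across the 67 single genes with a within-group SD of at most 1 on the log2 scale, this difference went with the log2 fold change of NPCT against vehicle, with Pearson's r = 0.79 and Spearman's rho = 0.71. With Rplp2 and Rps6, which vary most between libraries of one group, the 69 genes gave r = 0.87 and rho = 0.74. The correlation runs across genes measured in the same libraries, genes are not independent replicates, and the 2 differences share no library. It was taken over members only, so whether the pattern is particular to them was not tested.

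The plot of single genes by both differences shows Rps28, Rpl13, Rpl36 and Rpl36al at the upper right. Their log2 differences between PCT replicate 3 and the other PCT libraries were 1.45, 1.07, 0.96 and 0.91, and those of NPCT against vehicle 1.14, 1.00, 1.02 and 0.71. Rpl41 had 691, 602 and 694 FPKM in the vehicle libraries, 1007, 923 and 1157 FPKM with NPCT and 530.4, 503 and 956 FPKM with PCT, so that PCT replicates 1 and 2 were below every vehicle library and PCT replicate 3 was near the NPCT libraries. Rps27, Rpl39 and Rpl36a were at the other end, with -0.88, -0.61 and -0.55 for PCT replicate 3 and -0.15, -0.32 and -0.26 for NPCT.

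**Figure D3:**
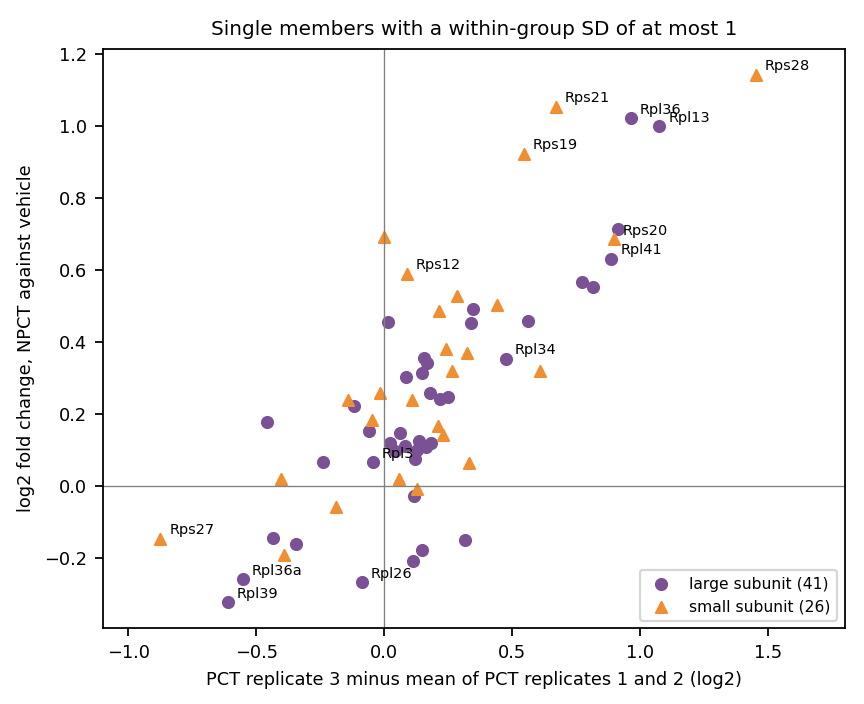
Log2 difference between PCT replicate 3 and the mean of the other PCT replicates (horizontal axis) and log2 fold change of NPCT against vehicle (vertical axis), both in log2 units, for 67 single ribosomal protein genes, 41 of the large and 26 of the small subunit. Each point is a gene, and the points rise together, with Spearman's rho = 0.71.

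The members lay above vehicle in the other PCT libraries too. Over PCT replicates 1 and 2 the members' median log2 difference from vehicle was 0.21, and for PCT replicate 3 it was 0.38, against 0.010 and 0.0050 over all genes. The large subunit had 0.22 and 0.38 and the small subunit 0.21 and 0.41. PCT replicate 3 also had a lower share of mitochondrial genome fragments than the other PCT libraries, 4.11% against 6.21% and 5.46%, and its log2 levels changed with log2 gene length, over genes that are no members, with a slope of -0.027 against 0.021 and 0.028. The NPCT libraries had slopes of -0.022, -0.027 and -0.019 and the vehicle libraries of 0.019, 0.028 and -0.00073, vehicle replicate 3 lying apart from the other vehicle libraries. The part of these in the pattern was not tested.

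**Figure D4:**
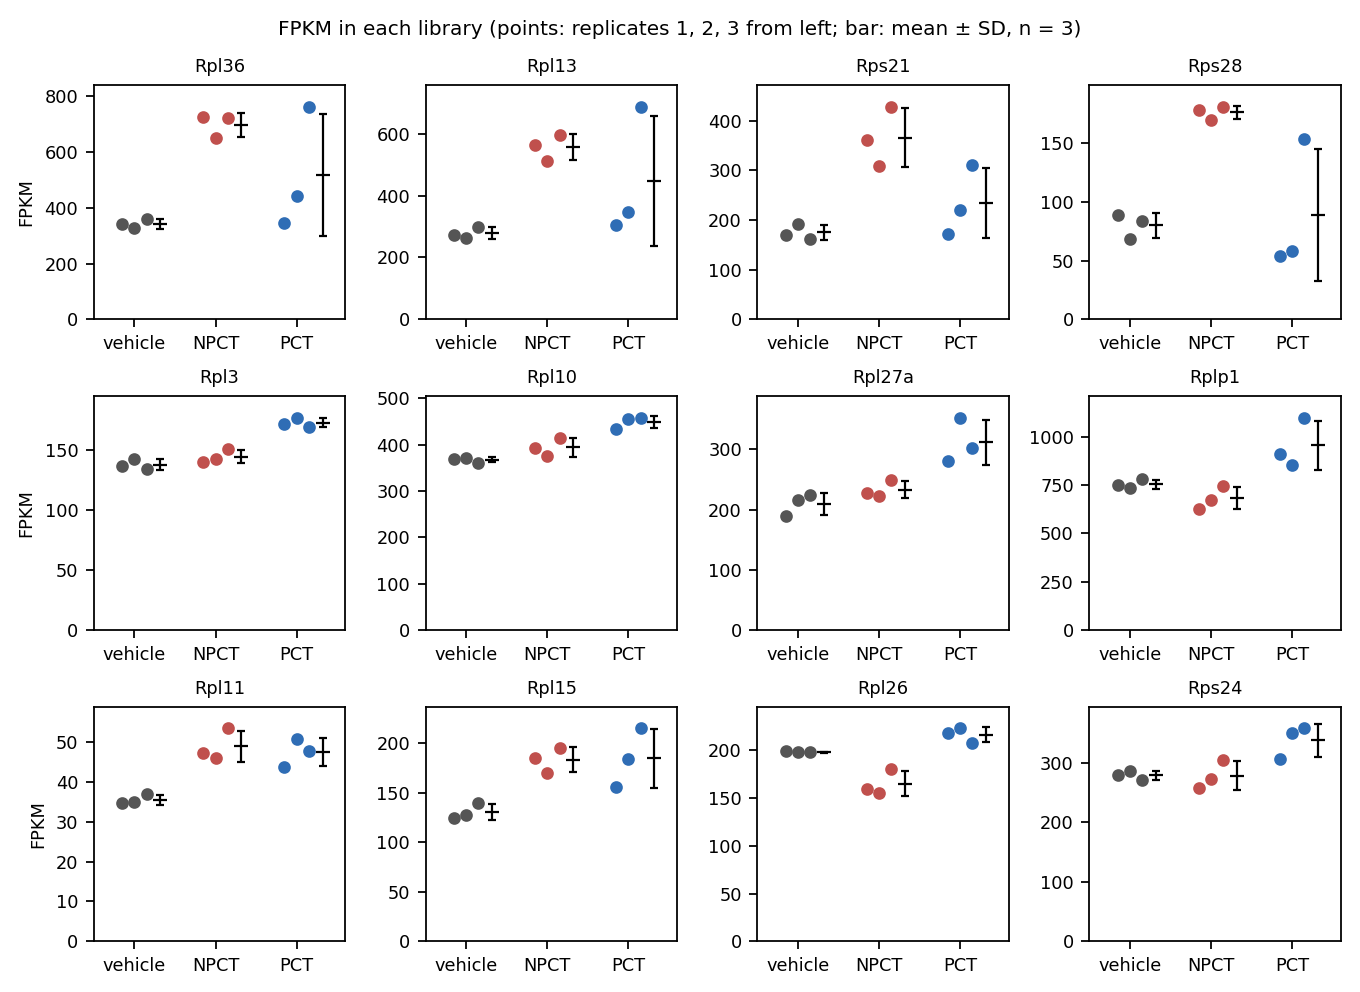
FPKM (vertical axes, from 0) in each library of 12 ribosomal protein genes by group (horizontal axes: vehicle, NPCT, PCT), with the mean and SD of 3 libraries. In Rpl36, Rpl13, Rps21 and Rps28 the NPCT libraries and PCT replicate 3 lie high, and in Rpl3, Rpl10, Rpl27a and Rplp1 all PCT libraries lie high.

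The members were also read by their place in the ribosome. Of the stalk, Rplp0 had log2 fold changes of 0.10 with NPCT and 0.078 with PCT and Rplp1 of -0.15 and 0.33. The median of the 3 stalk genes was 0.10 and 0.33. Rpl5, the partner of Rpl11 in the 5S particle, had 269.6, 276 and 264 FPKM in the vehicle libraries, 290.0, 282 and 312 FPKM with NPCT and 296, 300.5 and 328 FPKM with PCT. Its log2 fold changes were 0.13 (SE 0.063, adjusted p = 0.213) with NPCT and 0.19 (SE 0.063, adjusted p = 0.132) with PCT, so neither passed the test, although all 6 treated libraries lay above vehicle.

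The proteins of the exit tunnel are Rpl4, Rpl17 and Rpl39, with Rpl35 and Rpl23a around its mouth. Of the 4 that were tested 0 passed the test against vehicle, and 0 with NPCT and 2 with PCT were higher at an unadjusted p under 0.05, against 14.4% and 10.1% of all genes. Rpl4 had 0.11 (SE 0.059, adjusted p = 0.237) with NPCT and 0.25 (SE 0.059, adjusted p = 0.0549) with PCT. Rpl17 had 0.066 and 0.33, and Rpl35 0.12 and 0.14. Rpl23a was listed at 0 in all 9 libraries.

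On the small subunit, Rps2 and Rps3 line the path by which the mRNA enters, and Rps15 lies near the decoding site. Rps3 had 319.9, 338 and 333 FPKM in the vehicle libraries, 428, 388 and 479.7 FPKM with NPCT and 389, 376 and 453 FPKM with PCT. All 6 treated libraries lay above vehicle, with log2 fold changes of 0.38 (SE 0.094, adjusted p = 0.0574) and 0.29 (SE 0.094, adjusted p = 0.127). Rps2 had 0.32 and 0.20, and Rps15 0.19 and 0.23. Rpsa had 761, 789 and 786 FPKM in the vehicle libraries, 746, 703 and 799.7 FPKM with NPCT and 913, 942 and 814 FPKM with PCT, and its log2 fold changes were -0.057 (SE 0.076, adjusted p = 0.655) and 0.19 (SE 0.076, adjusted p = 0.217).

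Several ribosomal proteins have a paralog, and levels and differences of the pairs were set side by side. Rps27 was at 404 ± 22.3 FPKM and Rps27l, a p53 target, at 47.8 ± 3.79 FPKM in vehicle. Rps27l had log2 fold changes of 0.50 (SE 0.14, adjusted p = 0.0686) with NPCT and 0.49 (SE 0.14, adjusted p = 0.096) with PCT, and Rps27 of -0.15 (SE 0.21, adjusted p = 0.684) and -0.061 (SE 0.21, adjusted p = 0.922). Rpl36a had -0.26 with NPCT and Rpl36al 0.71. Rpl22l1, at 81.5 ± 7.43 FPKM in vehicle, had values below vehicle with both peptides, -0.21 (SE 0.10, adjusted p = 0.184) and -0.20 (SE 0.10, adjusted p = 0.305). Rpl7l1 had 0.11 (SE 0.073, adjusted p = 0.349) and 0.29 (SE 0.073, adjusted p = 0.063). Of the 16 tested genes of the paralog list, 0 were called with NPCT (2 higher and 2 lower at an unadjusted p under 0.05), 3 were called higher with PCT, and 5 were called lower with NPCT than with PCT. Over all genes 14.4% and 14.9% were at that unadjusted level with NPCT, 1.75% were called higher with PCT and 8.32% lower between the peptides. Rps4y2, the Y-named paralog of Rps4x that the table places on chromosome 4, had 0.69 (SE 0.34, adjusted p = 0.214) and -0.20 (SE 0.34, adjusted p = 0.818).

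In 11 members the libraries of one group differed by more than 0.5 (SD within groups, log2), against a median of 0.132 over the 69 single genes and 0.509 over the 14 copies. Rplp2, the second acidic stalk protein, had 5.25, 4.05 and 258 FPKM in the vehicle libraries, 238, 168 and 5.02 FPKM with NPCT and 6.59, 100.3 and 104 FPKM with PCT. Each group held libraries at a low and at a high level. A row outside the name rule that is described as P2, LOC498555, had a mean of 135 FPKM over the 9 libraries. It had 127, 131 and 125 FPKM in the vehicle libraries and 135, 120 and 141 FPKM with NPCT. With PCT it had 159, 177 and 101 FPKM, so its levels did not offset the swings of Rplp2. How the fragments of LOC498555 and Rplp2 were told apart is not given. Rps6, the ribosomal substrate of the S6 kinases, had 6.27, 6.37 and 30.1 FPKM in the vehicle libraries, 93.7, 19.7 and 20.9 FPKM with NPCT and 10.5, 5.50 and 43.7 FPKM with PCT. Its highest vehicle library lay above NPCT replicates 2 and 3. No comparison passed the test for either gene, with adjusted p of 0.587 and 0.257 with NPCT and 0.804 and 0.888 with PCT. Both count among the single genes, and since the treatment of reads matching several places is not given, their levels are uncertain.

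Rps19, the first known Diamond-Blackfan gene, had 98.6, 18.0 and 25.6 FPKM in the vehicle libraries, 71.9, 65.7 and 65.8 FPKM with NPCT and 70.0, 106 and 126 FPKM with PCT, and its copy Rps19l2 had 16.9, 87.2 and 110.5 FPKM in the vehicle libraries, 107, 54.1 and 145 FPKM with NPCT and 64.1, 83.7 and 110.5 FPKM with PCT. Vehicle libraries that were low in one were high in the other. Their sum had a within-group SD of 0.356, against 0.789 and 0.974 for the separate rows. The Rps27a row on chromosome 14 had 573, 530.0 and 245 FPKM in the vehicle libraries, 409, 475 and 303 FPKM with NPCT and 469, 517 and 272 FPKM with PCT, and the row on chromosome 5 had 187, 245 and 425 FPKM in the vehicle libraries, 231, 136 and 367 FPKM with NPCT and 372, 373 and 489.7 FPKM with PCT. Replicate 3 of each group was the lowest of its group in the former and the highest in the latter. The SD of the sum was 0.101, against 0.522 and 0.557 for the rows, and the sum was 735 ± 56.6, 640.0 ± 29.6 and 831 ± 65.1 FPKM with vehicle, NPCT and PCT. The 4 Rpl21 rows summed had an SD of 0.237 and the pair of Rpl7a rows one of 0.598. The 14 copies had median log2 fold changes of -0.18 with NPCT and 0.15 with PCT, and the 69 single genes 0.24 and 0.25.

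**Figure D5:**
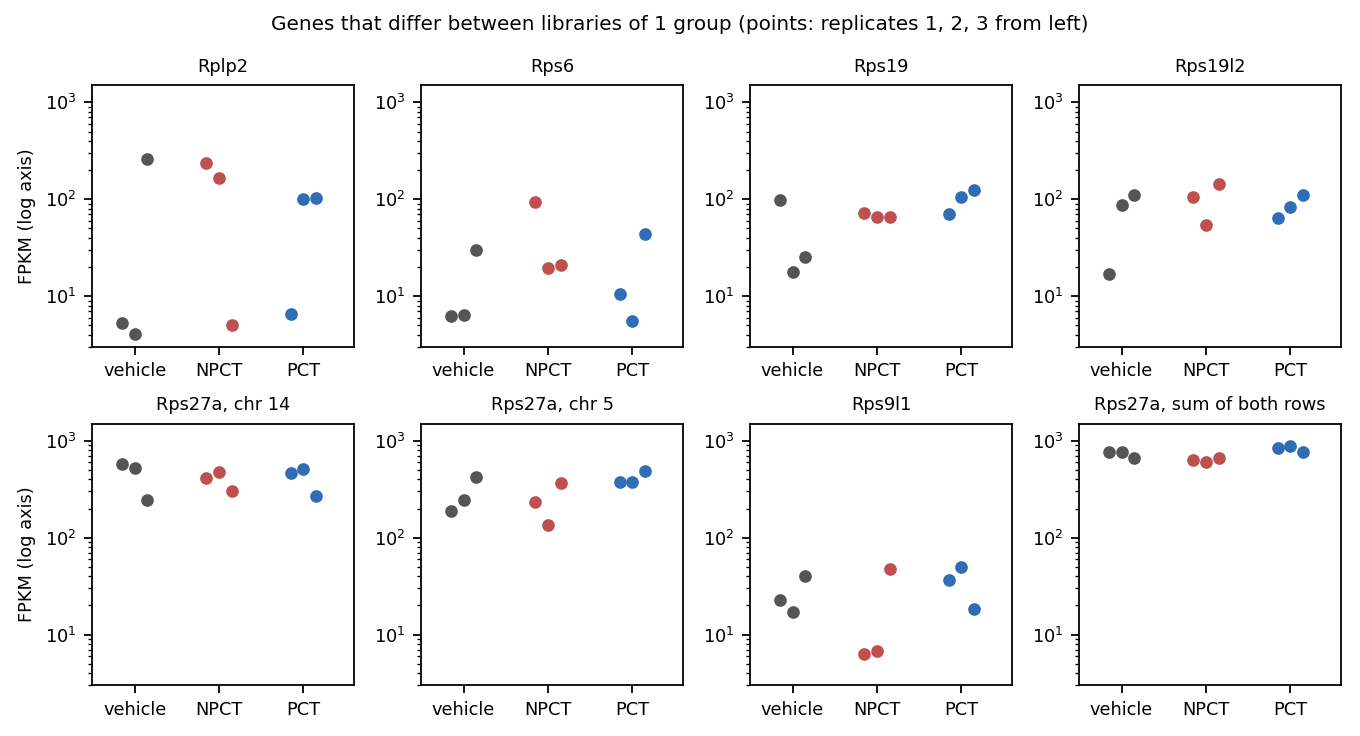
FPKM (vertical axes, logarithmic) by group (horizontal axes), with replicates 1 to 3 from left as points, of Rplp2, Rps6, Rps19, Rps19l2, the rows of Rps27a on chromosomes 14 and 5, Rps9l1 and the sum of the Rps27a rows. In replicate 3 of each group the chromosome 14 row is the lowest of its group and the chromosome 5 row the highest, while their sum lies between 611 and 890.3 FPKM.

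Of the 6 name-matching genes below the level filter, Rpl10a, Rpl23a and Rpl30l1 were listed at 0 in all libraries. Rpl35al1, Rpl3l (the muscle paralog of Rpl3) and Rps15al4 had means of 0.019, 0.243 and 0.303 FPKM over the 9 libraries. Of the 80 ribosomal proteins of a mammalian ribosome 67 had a member of their symbol, 40 of 47 in the large and 27 of 33 in the small subunit. The other 13 included Rpl10a, Rpl22, Rpl23a, Rps14, Fau and Rack1. Some of these proteins had rows under other names: 121 rows described as a cytosolic ribosomal protein lay outside the name rule, 82 of them with a mean of at least 0.5 FPKM and 14 with at least 50 FPKM.

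The S14 row LOC100911847 had 264, 261 and 269 FPKM in the vehicle libraries, 432, 362 and 507 FPKM with NPCT and 244, 162 and 425 FPKM with PCT, with PCT replicate 3 again near the NPCT libraries, and log2 fold changes of 0.70 (SE 0.29, adjusted p = 0.147) and -0.049 (SE 0.29, adjusted p = 0.956). The L22 row LOC100360057 had 147, 130.2 and 137 FPKM in the vehicle libraries, 187, 181 and 212 FPKM with NPCT and 153, 159 and 188 FPKM with PCT, both treated groups above vehicle, with 0.48 (SE 0.093, adjusted p = 0.0508) and 0.27 (SE 0.093, adjusted p = 0.156). The S12 row LOC100361933, annotated as a processed pseudogene, had 292, 253 and 281 FPKM in the vehicle libraries, 141, 168 and 150.0 FPKM with NPCT and 354, 452 and 211 FPKM with PCT. Its NPCT libraries were the lowest, with a log2 difference between NPCT and PCT of -1.08 (SE 0.23, adjusted p = 0.0177), while the member Rps12 had 133, 178 and 160.3 FPKM in the vehicle libraries, 249, 199.9 and 260.3 FPKM with NPCT and 182, 172 and 188 FPKM with PCT and a difference of 0.38 (SE 0.12, adjusted p = 0.0684). These rows were named after their values had been seen. Fau, a ubiquitin-like fusion whose ribosomal part is S30, had 72.9, 287 and 99.5 FPKM in the vehicle libraries, 394, 176 and 354 FPKM with NPCT and 268, 328 and 339 FPKM with PCT, with groups that overlapped. Rack1, a scaffold on the head of the small subunit, had log2 fold changes of 0.0015 (adjusted p = 0.989) with NPCT and 0.10 (adjusted p = 0.389) with PCT.

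Mitochondrial ribosomal protein genes, which form a separate ribosome, lay above vehicle as well. Of 73 tested, 58 were higher with NPCT (median 0.21, log2), and 67 with PCT (median 0.23). The test called 1 higher and 0 lower with NPCT and 3 higher and 0 lower with PCT, against 0.269% and 1.75% of all genes called higher. Of all 15958 genes, 8110 and 8134 were higher. The cytosolic members had medians of 0.19 and 0.25.

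Of 7 elongation factor genes 0 were called with NPCT (5 higher at an unadjusted p under 0.05, median 0.16) and 1 with PCT (median 0.12), against 14.4% of all genes higher at that level with NPCT and 1.75% called higher with PCT. That gene was Eef1b2, the exchange factor of Eef1a, with 0.40 (SE 0.051, adjusted p = 0.00408). The other log2 fold changes, with NPCT and with PCT, were -0.026 and 0.11 for Eef1a1 and 0.15 and -0.057 for Eef1a2, which bring the aminoacyl-tRNA. They were 0.21 and 0.27 for Eef1d and 0.22 and 0.12 for Eef1g, of the exchange complex. They were 0.16 and 0.084 for Eef2, the translocase, and 0.32 and 0.36 for Eif5a, which helps at stalling sequences.

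Of 34 initiation factor genes tested, 1 rose with NPCT and 6 rose with PCT, with medians of -0.027 and 0.17. Eif6, which keeps the subunits apart and takes part in 60S maturation, had the smallest p in both, with 0.46 (adjusted p = 0.0493) and 0.52 (adjusted p = 0.00744). Between the peptides 14 were lower and 1 higher with NPCT. Of 49 ribosome assembly genes 1 rose with NPCT and 13 rose with PCT, with medians of 0.054 and 0.33, and 19 were lower with NPCT than with PCT. Over all genes 0.269% were called higher with NPCT, 1.75% higher with PCT, and 8.32% lower and 7.97% higher between the peptides. The smallest p was that of Dkc1, a pseudouridine synthase of small nucleolar particles, with NPCT (0.64, adjusted p = 0.0493), of Nop16 with PCT (0.43, adjusted p = 0.00391) and of Npm1, the nucleolar chaperone nucleophosmin, between the peptides (-0.66, adjusted p = 0.00238). Set beside these, the ribosomal protein genes had medians of 0.19 and 0.25, and the difference between the lists was not tested.

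Of 5 tested termination and nascent chain genes 0 were called with NPCT (1 lower at an unadjusted p under 0.05) and 1 with PCT, Tpt1 (0.32, adjusted p = 0.041). Of 20 genes of translation control 0 were called with NPCT (3 higher and 3 lower at an unadjusted p under 0.05, against 14.4% and 14.9% of all genes) and 1 with PCT (1.75% of all genes were called higher), Eif4ebp1, the mTORC1-regulated protein that keeps eIF4E from eIF4G (0.78, adjusted p = 0.0151). Their medians were 0.10 and 0.28 for the former and -0.047 and -0.011 for the latter.

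Ribosomal protein mRNAs are short, and short genes as a whole lay higher with NPCT. Over all genes the log2 fold change went with log2 gene length with Spearman's rho of -0.22 for NPCT and -0.14 for PCT, and over the 85 members with -0.17 and 0.08, across genes. Among genes over 500 bases and up to 1 kb the median with NPCT was 0.26 over 36 members and 0.19 over all genes, and with PCT it was 0.28 and 0.10. Up to 500 bases it was 0.24 over 24 members and 0.082 over all genes with NPCT, and 0.22 and 0.033 with PCT. From 1 to 2 kb it was 0.13 over 18 members and 0.076 over all genes with NPCT, and 0.24 and 0.046 with PCT. The medians over all genes include the members.

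The start windows were set beside the differences as a description. The 18 single genes with a C start and a run of at least 5 pyrimidines had median log2 fold changes of 0.10 with NPCT and 0.22 with PCT, and a median difference of NPCT minus PCT of -0.13. The 34 other single genes with a window had 0.34, 0.29 and 0.068. By the looser rule of at least 7 pyrimidines near the start, 43 single genes had 0.18, 0.27 and -0.066. The 9 others had 0.26, 0.19 and 0.044, so the order with PCT was reversed. With NPCT the medians with and without CCGGAA were 0.32 and 0.18, and for CTTTCC 0.33 and 0.18. For GGGCGG they were 0.18 and 0.26, for TATAAA 0.21 and 0.21, and for AAGATGGC 0.26 and 0.21. Rpl10 and Rplp1, with runs of 12 and 9 bases, had differences of NPCT minus PCT of -0.19 and -0.48. Rpl36 and Rps28, with a run of 1 base and a G start, had 0.51 and 1.17. Both also had a longer run near the start, of 8 and 9 pyrimidines. Rpl26, with an A start, and Rpl36a, with a run of 1 base, had the negative differences given above. Rpl37a, with a C start and a run of 12 bases, had 0.42, so the order did not hold gene by gene. None of these differences between gene sets was tested.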

How the data were processed

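RNA-seq was made from 9 libraries, 3 each of vehicle, NPCT and PCT cultures. The deposited values were FPKM per gene, which the authors made after alignment to Rnor_6.0 and gene counting; the submitters' processing notes name CASAVA, HISAT2 2.0.5, StringTie 1.3.3b, featureCounts 1.5.0-p3 and DESeq2 1.20.0. How reads matching several places were treated is not given in the sources used here. FPKM were divided by a median-ratio factor equal in all libraries (1.00648), so that the values kept their proportions. The 15958 genes at or above a mean of 0.5 FPKM were tested on log2(FPKM + 0.1) with limma 3.58.1 in R 4.3.3 (trended variances, all groups in 1 fit, no replicate block), with Benjamini-Hochberg adjustment over all of them. A fold change on this scale is understated for low genes. The fit was checked on simulated data. SDs are over 3 libraries, and the "SD within groups" pools the 3 groups on the log2 scale. Depth was 13573056 to 17211642 fragments a library, and precision is limited by n = 3. Members and lists were chosen with earlier results of these data known. Named are members called in any comparison, the 4 highest and lowest fold changes against vehicle of each subunit, the highest and lowest levels, the members of role and paralog lists, and the leading gene of each other list, and a few others named for their values; some genes that the rule takes in are counted but not reported here. Alternatives were other pseudocounts, filters, scalings and fits, a replicate block, removal of the gene length trend and each library left out. Promoter windows are from RefSeq (GRCr8), and figures were drawn with matplotlib 3.10.9.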

Additional observations from a re-analysis of the deposited data

How the results depend on the processing

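The medians over vehicle kept their sign under every setting run. With the gene length trend removed, the median with NPCT moved to 0.075 in the large and 0.13 in the small subunit, by construction of that setting through the shortness of these genes. The number of members called with NPCT against vehicle, 1 with all 9 libraries, was 9 with a mean FPKM of at least 1, 0 with no filter on low values (28 at an unadjusted p under 0.05), 8 after quantile normalization, 32 with only the 2 groups compared and 5 with the gene length trend removed, and 0 to 31 with 1 library left out, the highest without PCT replicate 3. Calls over all genes, 75 at first, were 734, 11, 601, 3007 and 415 in these 5 settings. With 1 library left out they were 0 to 3077, also highest without PCT replicate 3. With PCT against vehicle, 7 members were called, 1 with no filter and 3 with only the 2 groups compared. With 1 library left out 1 to 15 were called, the highest without PCT replicate 1. Over all genes these counts were 671, 303 and 424, and 207 to 725 with 1 library left out, highest without NPCT replicate 3. Between NPCT and PCT 12 members were called, 3 with no filter, 2 with only the 2 groups compared and 19 with the gene length trend removed. With 1 library left out 3 to 29 were called, the highest without PCT replicate 3. Over all genes these counts were 2599, 955, 762 and 2798, and 995 to 4650 with 1 library left out, also highest without PCT replicate 3. The cause of these changes was not tested. With a replicate block 16 members were called with NPCT, 5 with PCT and 13 between the peptides, against 1235, 522 and 2561 of all genes. Deviations of libraries with the same number correlated by -0.072 to 0.034, so the numbers were not read as pairs. FPKM as deposited differ from the scaled values by 1 constant, so they are no separate check. Of the 20 calls, 19 were kept with either other pseudocount, 19 with a mean FPKM of at least 1, 18 after quantile normalization, 17 with the block, 16 with the length trend removed, 6 with only the 2 groups compared and 4 with no filter. Without gene copies, an alternative chosen after seeing the data, the medians with NPCT were 0.17 and 0.32. Levels near 1 FPKM limit Rpl39l and Rps4y2, and rows of near-identical copies are uncertain.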
